A study of Mus musculus with 12 samples.

Results

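The potassium channel family of the mouse was taken as all protein-coding genes whose symbol begins with Kcn, which gave 94 of the 54232 genes in the count table. The symbols cover the pore-forming subunits of voltage-gated (Kcna to Kcnd, Kcnh, Kcnq) and calcium- and sodium-activated channels (Kcnma1, Kcnn, Kcnt). They include Kcnu, a relative of Kcnma1, and the inward rectifier (Kcnj) and two-pore leak channels (Kcnk). They also cover the silent subunits that act only in mixed channels (Kcng, Kcns, Kcnv), cytosolic partners (Kcnab, Kcnip) and membrane-spanning partners (Kcne, Kcnmb). Potassium channels set the resting potential of a cell and end its action potentials, so that each type of neuron or glial cell carries its own mixture. In the retina, Kcnv2 shapes the light response of photoreceptors, Kcnj10 carries the potassium uptake of Müller glia, and Kv1 and Kv3 channels set the firing of ganglion and amacrine cells.

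RNA was measured in 12 libraries, 3 in each of 4 groups, and all mice were adult wild-type males. Per the labels, eyes received AAV-Olig1 or AAV-GFP and the optic nerve was crushed, which cuts the axons of retinal ganglion cells. Olig1 encodes a transcription factor of the basic helix-loop-helix class known from oligodendrocytes, and GFP is a fluorescent protein used as the control. The groups were Olig1 at day 7 after the crush, GFP at day 7, Olig1 at day 14 and GFP at day 14, and every label gives the same 14 days since injection. Each library came from a pool of a few fluorescent cells that were enriched with CD90.2 beads and picked as ganglion cells, the labels name no promoter for either vector, and all 4 groups, controls included, had the crush. The labels do not tie libraries to animals, so the p-values describe spread among libraries and that spread may be technical.

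Total counts ran from 12534515 to 27602459 per library and genes with at least 1 count from 10129 (GFP day 14 replicate 1) to 17244. A count of 0 allows up to 3 counts, or 0.109 to 0.239 CPM (counts scaled to the library total) depending on the library, and such limits and the intervals given with ratios below cover counting error only. Olig1 itself rose with its vector, by 11.62 ± 1.59 (log2, SE) at day 7 and by 11.02 ± 1.57 at day 14 (edgeR adjusted p = 0.0113 and 0.0276). Some ganglion cell markers were thin: Pou4f3 had 0 counts in all 12 libraries, Isl2 in 10, Pou4f2 in 8, and Pou4f1 and Slc17a6 in 6. Others, namely Rbpms, Thy1, Nefl, Nefm, Nefh and Tubb3, were detected in all 12, though Rbpms fell to 0.0392 CPM in GFP day 14 replicate 1. Slc17a6 stood at 92.6, 30.8 and 36.0 CPM in Olig1 day 7 and at most at 0.107 CPM in GFP day 7. The sum of 15 ganglion cell markers was 2644, 4742 and 2488 CPM in the Olig1 day 7 libraries, 70, 312 and 73 CPM in GFP day 7, 175, 3508 and 166 CPM in Olig1 day 14, and 236, 147 and 90 CPM in GFP day 14. Markers of Müller glia summed to 47052 to 146271 CPM, most of it Apoe, which other glia also express; the Müller enzyme gene Glul stood at 245 to 936 CPM in Olig1 day 7 and at 3770 to 5081 CPM in GFP day 7. The members are therefore described as genes of these pools and not as genes of ganglion cells, and in such pools fewer cells of a type and less RNA per cell cannot be told apart.

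One pair of libraries stood apart from the rest in how it shared genes absent from the others. Of the genes with at least 100 counts in Olig1 day 7 replicate 1 and 0 in the 10 libraries other than these 2, 16 of 16 were also found in Olig1 day 7 replicate 2, at a median CPM ratio of 0.210. The Kcn members showed the same ratio. All 32 members at 5 CPM or more in replicate 1 were detected in replicate 2, with a median ratio of 0.215 (quartiles 0.193 and 0.278), and 27 of them lay between 0.1 and 0.4 times the level in replicate 1. Against replicate 3 the median ratio of these members was 0.619 and the quartiles were 0.326 and 1.07, so the tight band was not seen in that pair. Other pairs shared such genes at lower ratios: 47 of 52 genes of Olig1 day 14 replicate 2 were found in replicate 3, at a median ratio of 0.0275. The source of the sharing was not tested. The called results are given below also without replicate 1 or 2 and with the counts of both added into 1 library.

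**Figure D1:**
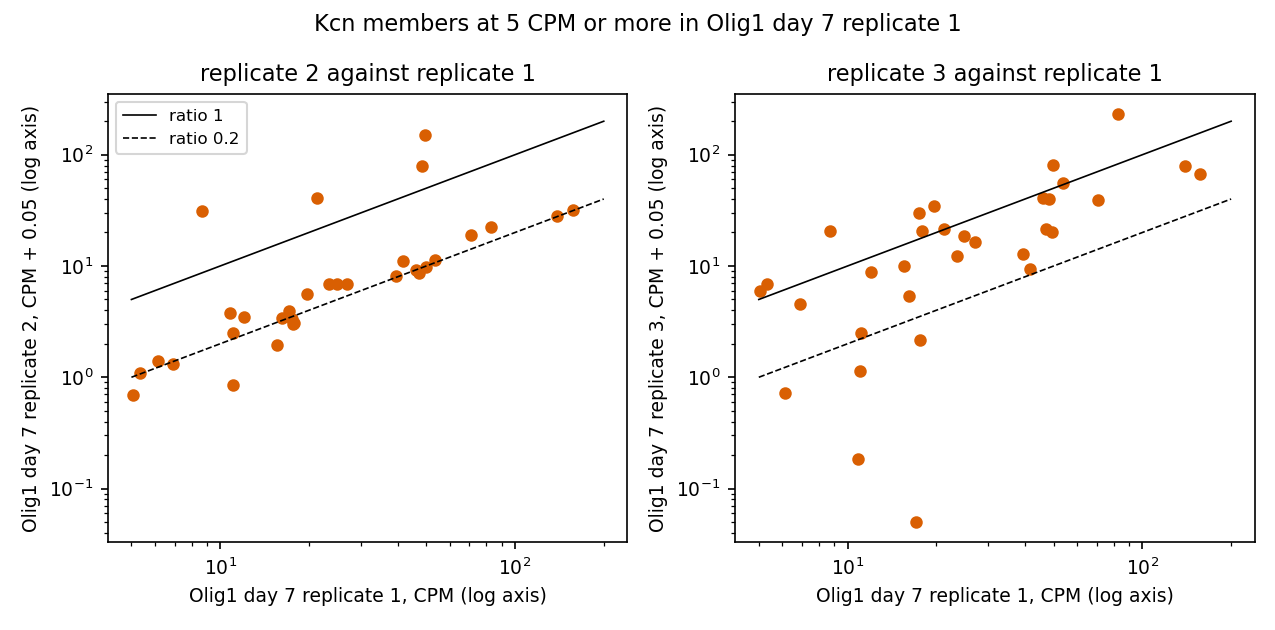
Each point is a Kcn member at 5 CPM or more in Olig1 day 7 replicate 1; the x axis gives its CPM there and the y axis its CPM + 0.05 in replicate 2 (left panel) or replicate 3 (right panel), both on log axes, with lines at ratios of 1 and 0.2. In the left panel 27 of the 32 points lie in a band between 0.1 and 0.4 times replicate 1, while in the right panel they scatter with quartiles of 0.326 and 1.07.

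Of the 94 members, 19 had 0 counts in all 12 libraries: Kcna7, Kcna10, Kcne1, Kcng1, Kcnh3, Kcnh8, Kcnj1, Kcnj4, Kcnj15, Kcnk5, Kcnk13, Kcnk15, Kcnk18, Kcnmb1, Kcnq1, Kcnrg, Kcns1, Kcnt2 and Kcnv1. Only 13 were detected in all 12. The number detected ran from 21 in GFP day 14 replicate 1, the library with the fewest genes, to 53 in Olig1 day 7 replicate 3. The filter on low counts left 52 members to test and 42 untested, among them the 19 without counts. Several untested members were present in 1 or 2 libraries: Kcnd2, a Kv4 subunit, stood at 4.23 and 1.49 CPM in Olig1 day 7 replicates 2 and 3, Kcna3 at 2.94 and 0.239 CPM in Olig1 day 7 replicates 1 and 2, and Kcnk6 at 4.27 and 1.92 CPM in GFP day 14 replicates 2 and 3. Kcnn4, a calcium-activated channel known from blood cells and microglia, stood at 15.2 CPM in GFP day 7 replicate 3 and 7.10 CPM in GFP day 14 replicate 3, both among the 4 libraries with microglia marker sums of 1476 to 9606 CPM (at most 51.2 CPM in the other 8), and at 0.272 CPM or less elsewhere. Kcnn4 had 0 counts in Olig1 day 7 replicate 3 and GFP day 14 replicate 2, which are also among those 4 (marker sums of 1476 and 6931 CPM). Kcnj8 and Kcne3 were each found in 1 library, at 0.107 and 0.16 CPM, and Kcnj16 in 2, at 0.164 and 0.209 CPM.

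**Figure D2:**
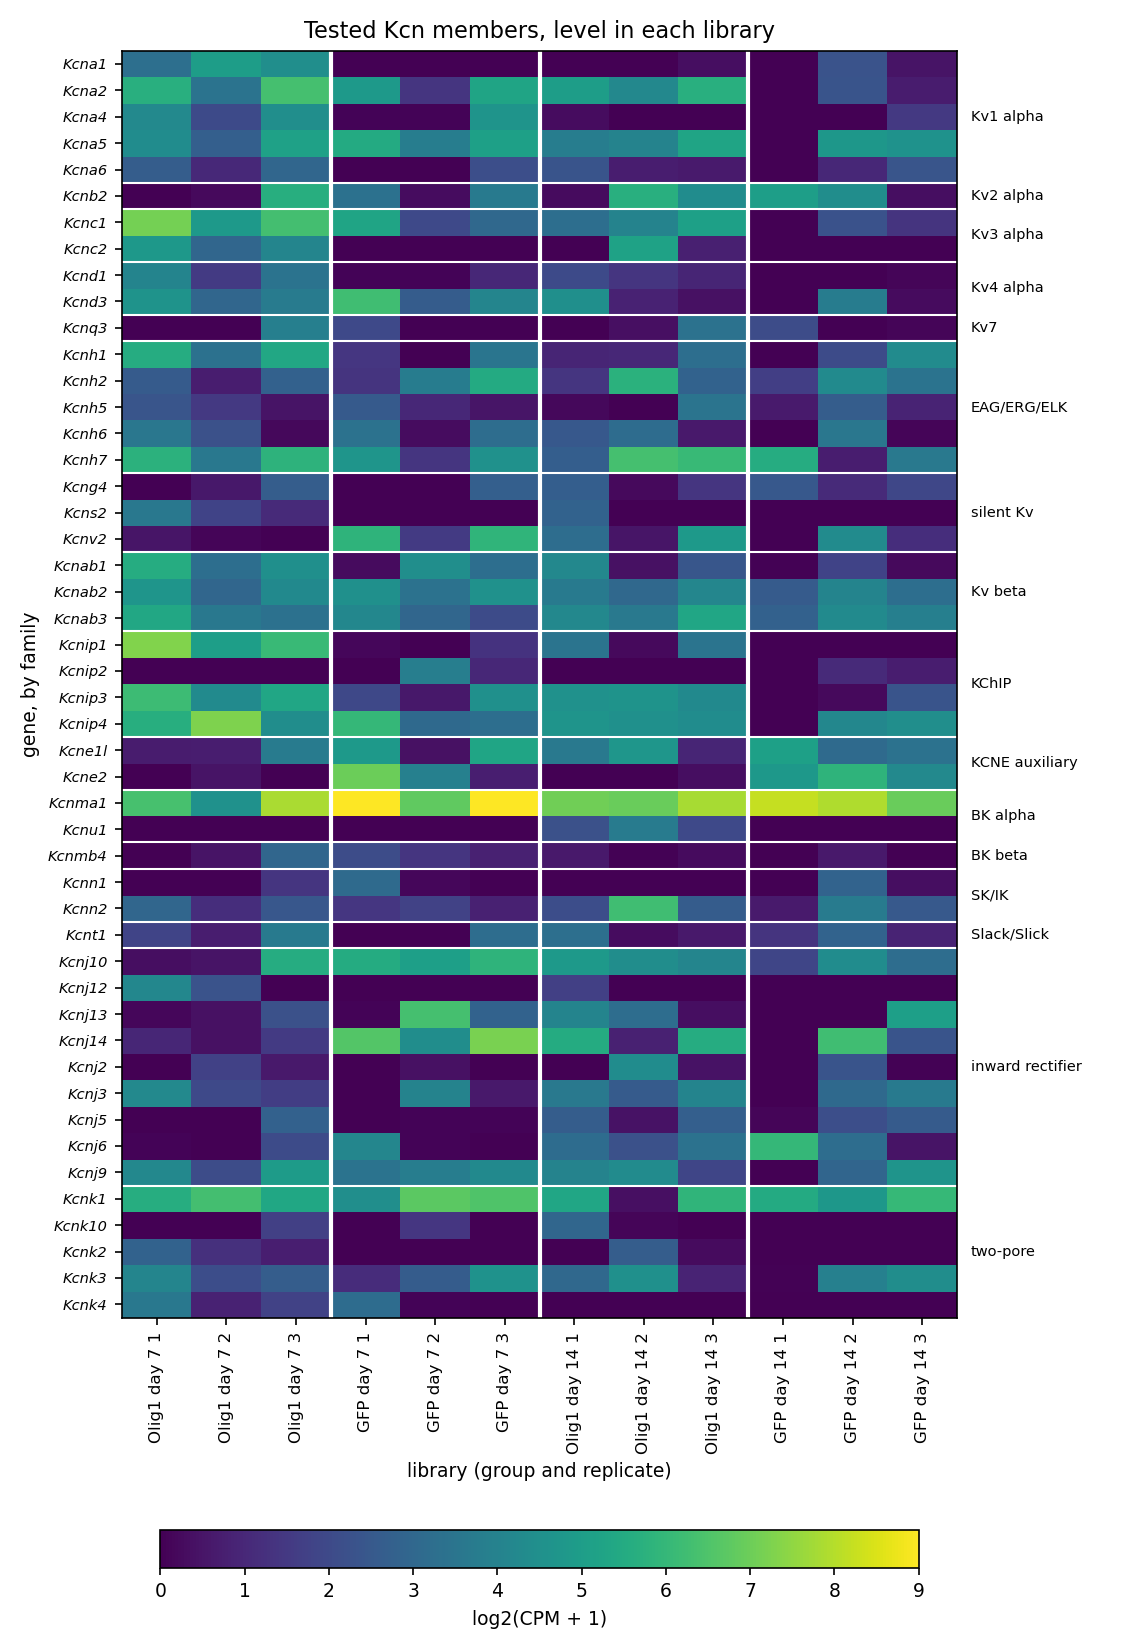
Rows are 48 of the 52 tested Kcn members ordered by channel family, columns are the 12 libraries by group and replicate, and color gives log2(CPM + 1). Kcnma1 is bright in every column, Kcnip1 is bright in the 3 Olig1 day 7 columns, and the column of GFP day 14 replicate 1, where 21 of the 94 members were detected, is mostly dark.

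The members differed widely in abundance, and levels of different genes are compared here per kilobase of exon. Over the 12 libraries the highest mean was that of Kcnk1, a two-pore leak channel, at 23.1 CPM per kilobase (0.128 to 47.5 in single libraries). Next came Kcnj14, a strong inward rectifier, at 13.4 CPM per kilobase and Kcnma1, the pore of the large-conductance BK channel, at 12.8. They were followed by Kcne2 at 11.4, Kcnj13 at 9.67, Kcnip4 at 9.24, Kcne1l at 9.09, Kcna5 at 7.75, Kcnab3 at 5.68 and Kcnip3 at 5.22 CPM per kilobase. Neighbors in this order did not separate from one another, since each gene's range over the libraries spanned the means of the next. Kcnma1 lay between 1.31 and 30.2 CPM per kilobase, and Kcnj14 ran from 0 to 53.9 CPM per kilobase. The level of Kcnj13 is uncertain, because 49.1% of its exons lie opposite those of Gigyf2 and the strand setting of the counting is not given.

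**Figure D3:**
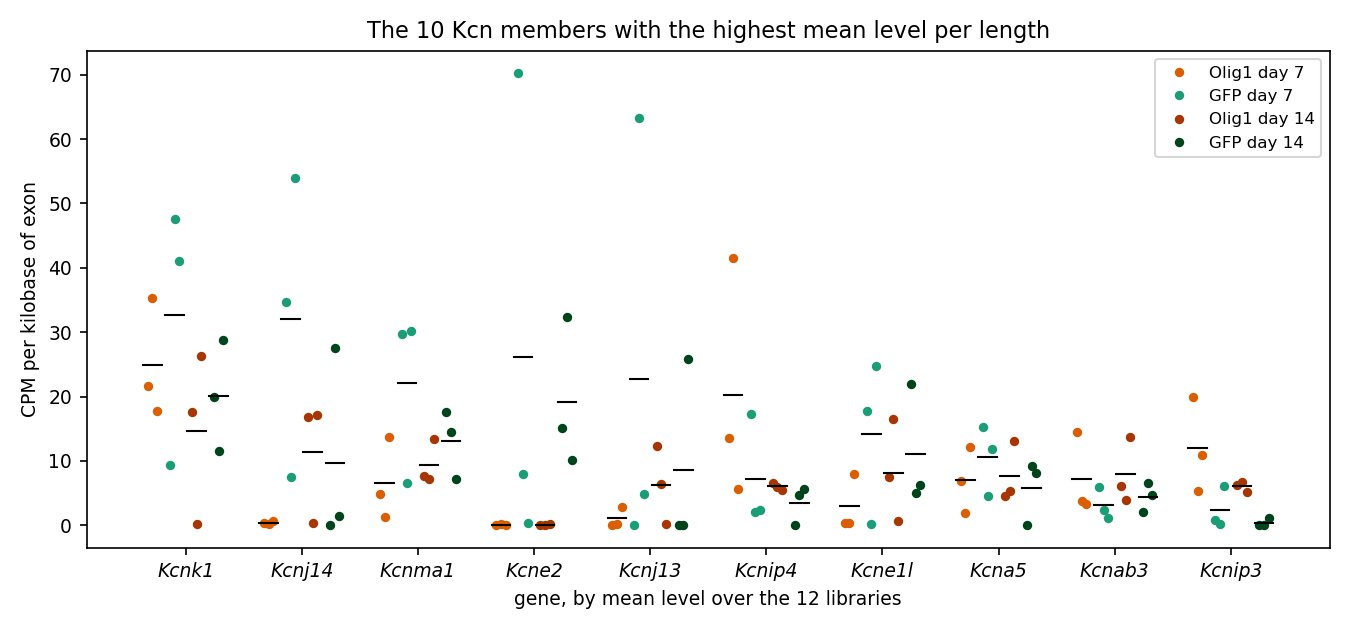
The 10 members with the highest mean level per length, ordered from left to right, with CPM per kilobase of exon on the y axis, 1 point per library colored by group and a bar at each group mean. Kcne2 lies at or near 0 in all 6 Olig1 libraries and reaches 70.2 CPM per kilobase in GFP day 7, and Kcnj14 is near 0 in the 3 Olig1 day 7 libraries.

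Presence in some libraries and absence in others of the same group was common in the family. In 19 of the 52 tested members (36.54%) at least 1 group held a library at 10 CPM or more beside a library at 0 counts, against 24.35% of all 14985 tested genes. The median coefficient of variation within groups was 1.02 for the members and 0.887 for all tested genes. Detection in all 12 libraries held for 25% of the tested members and for 47.18% of all tested genes.

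Whether the Olig1 vector went with another set of potassium channels was asked at day 7, at day 14 and over their mean. At day 7, edgeR called 0 of the 52 members at an adjusted p under 0.05, where 0.227% of all tested genes were called. At an unadjusted p under 0.05 there were 11 members (6 higher and 5 lower, beside 13.9% of all genes, 8.95% higher and 5% lower). DESeq2 called 6 members, beside 7.17% of the genes it adjusted, and limma voom 3, beside 2.87% of all genes. At day 14 edgeR again called 0 members, beside 0.04% of all genes; 12 members had an unadjusted p under 0.05 (9 higher and 3 lower, beside 10.4% of all genes, 5.57% higher and 4.86% lower). DESeq2 called 6 members, beside 5.38% of genes, and voom 2, beside 0.367%. Over the mean of both days 2 members were called, beside 0.654% of all genes: Kcnip1 rose, as did 0.38% of all genes, and Kcne2 fell, as did 0.274%. Here 16 members had an unadjusted p under 0.05 (10 higher and 6 lower, beside 14.9% of all genes, 8.5% higher and 6.38% lower). DESeq2 called 8 members, beside 8.67% of genes, and voom 5, beside 3.07%. With Olig1 day 7 replicates 1 and 2 added into 1 library 0 of the members were called over both days, and leaving out any 1 library gave 0 to 2.

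Across the 52 tested members the median fitted change was higher than over all genes. It was 0.62 at day 7 (log2, Olig1 over GFP), against -0.03 over all tested genes, and 0.56 at day 14, against 0.09. With genes at 0 counts in a group set to their bound from 3 counts, the medians were 0.83 and -0.04 at day 7 and 0.59 and 0.11 at day 14. At day 7 the 3 Olig1 and 3 GFP libraries did not overlap in 7 members higher and 3 lower, 19.2% of the members, beside 18.4% of all genes (9.4% higher and 9.01% lower). At day 14 this held for 7 higher and 1 lower, 15.4% of the members, beside 11.9% of all genes (7.78% higher and 4.12% lower). These shares lie near the background.

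The gene with the smallest p of the family in all 3 of these comparisons was Kcnip1, which encodes a calcium-binding protein that attaches to Kv4 channels and sets how fast they inactivate. Kcnip1 (ENSMUSG00000053519, GRCm38 chromosome 11, 33629339 to 33993152, minus strand) stood at 157, 31.8 and 67.4 CPM in the Olig1 day 7 libraries, against 0.107, 0 and 1.52 CPM in GFP day 7. Day 14 levels were 10.0, 0.163 and 10.1 CPM in Olig1 libraries, against 0 counts in all 3 GFP libraries. The Olig1 libraries thus lay above the GFP libraries at each day without overlap, although the 0.163 CPM of Olig1 day 14 replicate 2 are 4 counts. By the sharing check above, that replicate 2 held 11 of 28 genes of replicate 1 and 55 of 76 of replicate 3. Their median CPM ratios were 0.0133 and 0.012. Whether the 4 counts came from such sharing was not tested, so the lack of overlap at day 14 is uncertain. Of pooled counts, the level was 181-fold higher with Olig1 at day 7 (95% exact binomial interval 125 to 273) and at least 161-fold higher at day 14. The fitted rise over both days was 8.79 ± 1.58 (log2, SE; edgeR adjusted p = 0.0305), while the adjusted p was 0.195 at day 7 and 0.416 at day 14.

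That call depended on single libraries. The adjusted p over both days was 0.0865 without Olig1 day 7 replicate 1, 0.0549 without replicate 2 and 0.0634 with both added into 1 library, and leaving out a GFP library lost it in 4 cases, with 0.0806 (day 7 replicate 1), 0.0533 (day 7 replicate 2), 0.0822 (day 14 replicate 2) and 0.0618 (day 14 replicate 3). The pooled ratio at day 7 was 98.7 without Olig1 replicate 1 and 227 without replicate 2, and without GFP replicate 3, which holds 26 of the 28 GFP counts, it was 1738 (interval 481 to 14355).

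The other KChIP genes varied more. Kcnip3 stood at 70.8, 18.7 and 38.7 CPM in Olig1 day 7, against 2.82, 0.493 and 21.8 CPM in GFP day 7, and at 22.3, 23.9 and 18.4 CPM in Olig1 day 14, against 0, 0.181 and 4.05 CPM in GFP day 14. Its groups overlapped at day 7 and did not at day 14 (3.04 ± 1.25 over both days, edgeR adjusted p = 0.259). Kcnip4 stood at 49.4, 151 and 20.3 CPM in Olig1 day 7, against 62.6, 7.5 and 8.49 CPM in GFP day 7, and its groups overlapped at both days. Kcnip2 had 0 counts in all 6 Olig1 libraries and stood at 13.6 and 0.995 CPM in GFP day 7 replicates 2 and 3 and at 1.12 and 0.668 CPM in GFP day 14 replicates 2 and 3, which makes it at least 87.0-fold lower with Olig1 in pooled counts over both days (edgeR adjusted p = 0.146).

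Among the Kv4 subunits to which KChIPs bind, Kcnd1 stood at 15.5, 1.91 and 9.87 CPM in Olig1 day 7, against 0.0533, 0.0547 and 0.995 CPM in GFP day 7. Day 14 levels were 3.05, 1.63 and 0.904 CPM in Olig1 libraries, against 0, 0 and 0.0835 CPM in GFP libraries. The groups did not overlap at either day, the pooled ratio over both days was 32.8 (interval 21.3 to 53.4), and the change was not called (5.11 ± 1.72, edgeR adjusted p = 0.164). Kcnd3 did not follow it: 23.4, 6.86 and 12.4 CPM in Olig1 day 7, against 74.2, 5.09 and 16.2 CPM in GFP day 7 (adjusted p = 0.904).

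Kcne2, the other called member, encodes a single-pass subunit known to associate with Kv7 and ERG channels. Kcne2 (ENSMUSG00000039672, GRCm38 chromosome 16, 92292389 to 92298129, plus strand) had 0, 5 and 0 counts in Olig1 day 7 and 0, 0 and 5 counts in Olig1 day 14, which is at most 0.399 CPM. The GFP day 7 libraries held 124, 14.0 and 0.702 CPM of Kcne2, and the GFP day 14 libraries 26.7, 57.1 and 17.8 CPM. No Olig1 library reached the lowest GFP library at either day. Pooled counts were 439-fold lower with Olig1 at day 7 (interval 188 to 1352) and 445-fold lower at day 14 (interval 191 to 1373). Kcne2 fell by 8.13 ± 1.73 over both days (log2, SE; edgeR adjusted p = 0.0439), and the adjusted p was 0.229 at day 7 and 0.438 at day 14.

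The Kcne2 call was held by few settings. Leaving out any 1 library other than GFP day 14 replicate 1 gave adjusted p values of 0.0507 to 0.146, DESeq2 size factors gave 0.0574 and the added Olig1 day 7 libraries 0.0752. The pooled ratio stayed large: without GFP day 7 replicate 1 the day 7 level was still 69.3-fold lower with Olig1 (interval 29.3 to 215). The related Kcne1l stood at 0.598, 0.638 and 12.3 CPM in Olig1 day 7, against 27.3, 0.328 and 38.2 CPM in GFP day 7, with overlapping groups (adjusted p = 0.623).

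**Figure D4:**
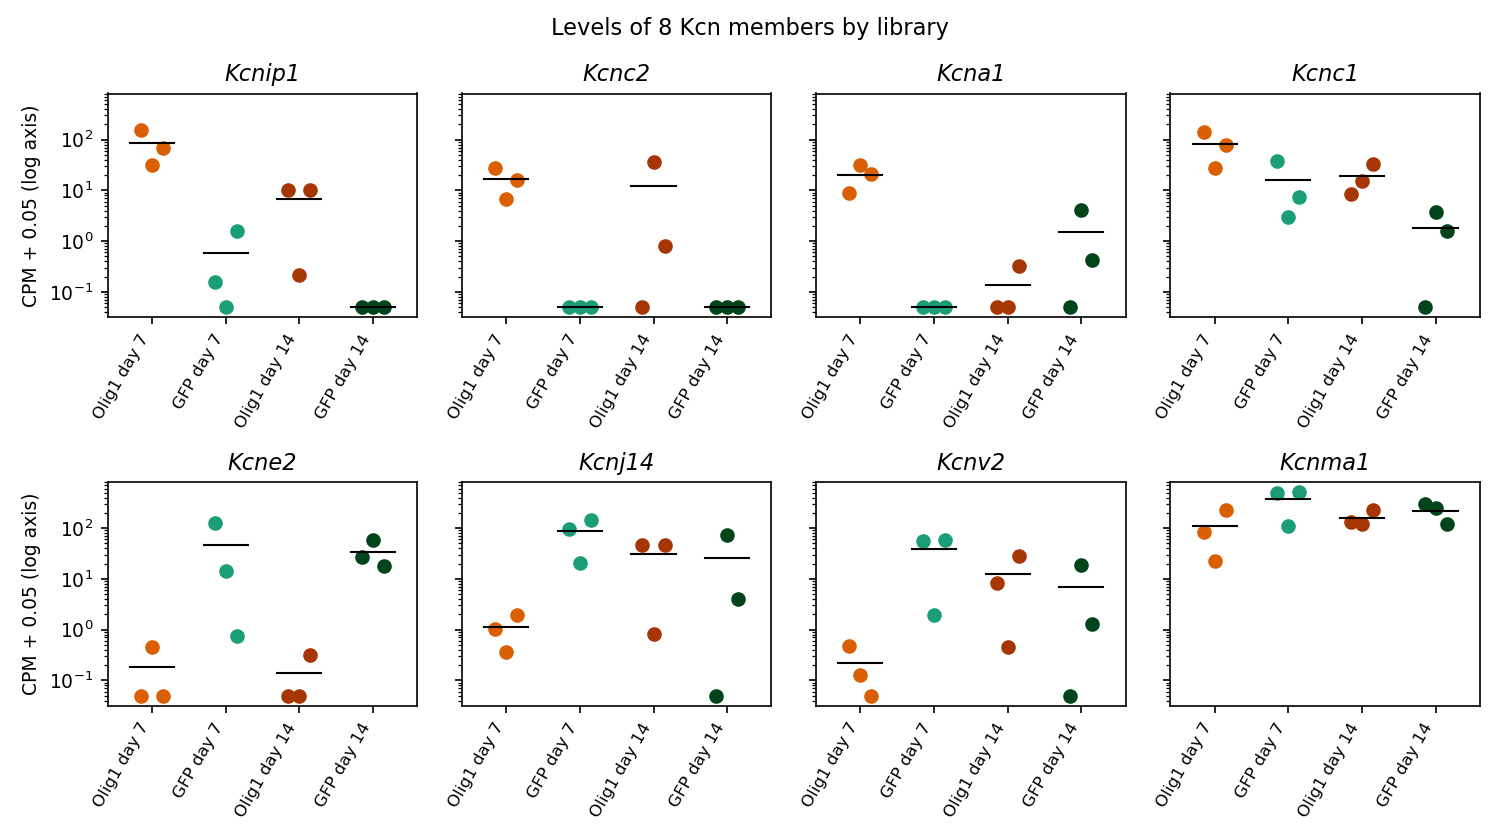
Each panel shows CPM + 0.05 on a log axis for 1 of 8 Kcn members in the 4 groups, with 1 point per library and a bar at the group mean of CPM. Kcnip1 and Kcnc2 have points at 0 in the GFP groups and points at 6.78 CPM or more in Olig1 day 7, Kcne2 shows the opposite order at both days, and Kcnma1 spans 22.3 to 512 CPM.

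The sequences before the starts of Kcnip1 and Kcne2, and of Kcnc2, which had the next smallest p over both days, are shown because the vector encodes a basic helix-loop-helix factor, a class that binds E-boxes. Each is the 250 bases before the outermost RefSeq start on GRCm38.p6, read 5′ to 3′ on the strand of the gene, with every CANNTG (an E-box, the same letters on both strands) in capitals; which start these cells use was not measured. Kcnip1 lies at chr11:33993194-33993443 (minus), Kcne2 at chr16:92292139-92292388 (plus) and Kcnc2 at chr10:112269767-112270016 (plus).
Kcnip1: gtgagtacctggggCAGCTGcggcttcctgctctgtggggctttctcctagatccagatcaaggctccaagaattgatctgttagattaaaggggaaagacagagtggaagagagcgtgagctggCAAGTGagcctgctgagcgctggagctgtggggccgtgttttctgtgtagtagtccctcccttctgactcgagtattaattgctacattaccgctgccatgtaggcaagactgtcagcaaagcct
Kcne2: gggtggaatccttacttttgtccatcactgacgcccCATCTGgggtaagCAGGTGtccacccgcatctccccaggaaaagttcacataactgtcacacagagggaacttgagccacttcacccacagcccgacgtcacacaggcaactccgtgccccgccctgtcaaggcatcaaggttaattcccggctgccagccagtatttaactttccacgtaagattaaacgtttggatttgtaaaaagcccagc
Kcnc2: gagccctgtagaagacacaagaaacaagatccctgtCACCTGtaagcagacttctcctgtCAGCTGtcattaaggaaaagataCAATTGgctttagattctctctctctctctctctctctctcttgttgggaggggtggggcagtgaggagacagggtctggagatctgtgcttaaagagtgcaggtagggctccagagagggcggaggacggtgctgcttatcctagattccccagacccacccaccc
Kcnip1 and Kcne2 hold 2 such matches each and Kcnc2 holds 3. At least 1 CANNTG was found in 63 of the 94 promoters in the table for 69 Kcn genes (67.02%), beside 66.22% of all 32851 promoters of the same length. TAATCC, the core of the sites of the photoreceptor factor Crx, searched on both strands, was in 0 of these 3 promoters, in 2 of the 94 (2.128%) and in 6.252% of all. A match of letters is a description of the sequence and not a binding site.

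Among the Kv3 subunits, which let neurons fire at high rates, Kcnc1 and Kcnc2 had their highest group means in Olig1 day 7. Kcnc2 stood at 27.0, 6.78 and 16.3 CPM in Olig1 day 7 and at 0, 35.7 and 0.745 CPM in Olig1 day 14, while all 6 GFP libraries had 0 counts. In pooled counts it was at least 324-fold higher at day 7 and at least 358-fold higher at day 14, where 877 of 891 counts came from replicate 2 and 14 from replicate 3 (edgeR adjusted p over both days = 0.0706). By the sharing check above, genes of Olig1 day 14 replicate 2 were found in replicate 3 at a median ratio of 0.0275. The source of the 14 counts was not tested. Kcnc1 stood at 139, 28.2 and 78.3 CPM in Olig1 day 7, against 37.5, 2.96 and 7.32 CPM in GFP day 7. Day 14 levels were 8.58, 15.2 and 33.6 CPM in Olig1 libraries, against 0, 3.77 and 1.54 CPM in GFP libraries. The groups of Kcnc1 overlapped at day 7 and did not at day 14 (2.94 ± 1.01 over both days, adjusted p = 0.169, and 0.0380 without the 4 libraries with high microglia markers).

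Of the Kv1 subunits, which hold down firing from the axon, Kcna1 was found mainly in one group. It stood at 8.70, 31.2 and 20.7 CPM in Olig1 day 7, against 0 counts in all 3 GFP day 7 libraries, which is at least 338-fold in pooled counts (edgeR adjusted p = 0.208). At day 14 the values were 0, 0 and 0.266 CPM in Olig1 libraries, against 0, 3.99 and 0.376 CPM in GFP libraries. Kcna2 stood at 49.7, 9.73 and 81.2 CPM in Olig1 day 7, against 28, 1.64 and 37.6 CPM in GFP day 7, and at 31.5, 17.5 and 49.7 CPM in Olig1 day 14, against 0, 4.06 and 0.626 CPM in GFP day 14. Only at day 14 did its groups not overlap (4.42 ± 1.62, adjusted p = 0.438; 3.83 and 0.512 without GFP day 14 replicate 1). Kcna5 was spread over both vectors, at 5.58 to 37.4 CPM in Olig1 libraries and 0 to 43.9 CPM in GFP libraries. Kcna6 reached at most 6.83 CPM, and 39.6% of its exons lie opposite Gm26673.

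The cytosolic beta subunits, which bind Kv1 channels, were present in every library. Kcnab2 stood at 6.86 to 24.9 CPM in Olig1 libraries and 4.98 to 22.3 CPM in GFP libraries, and its difference over both days was 0.12 ± 0.83 (edgeR adjusted p = 0.999). Kcnab3 stood at 9.33 to 41.6 CPM with Olig1 and 3.16 to 18.8 CPM with GFP. Kcnab1 ranged from 0.326 to 47.1 CPM with Olig1 and from 0.0392 to 20.6 CPM with GFP. All 3 had positive fitted changes at both days, and none had an unadjusted p under 0.05.

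Kcnq3, a subunit of the M-current that dampens repetitive firing, was seen in 6 libraries, at 0.0835 to 13.7 CPM. Kcnh1, an EAG channel, stood at 46.2, 9.17 and 40.8 CPM in Olig1 day 7, against 1.65, 0 and 10.2 CPM in GFP day 7, and its groups overlapped only through the 9.17 CPM of replicate 2 (3.11 ± 2.21, adjusted p = 0.578).

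Kcnv2 and Kcnj14 had the opposite order to Kcnip1 at day 7. Kcnv2, a silent subunit that forms channels with Kv2 subunits in photoreceptors, stood at 0.435, 0.0798 and 0 CPM in Olig1 day 7, against 56.7, 1.86 and 58.6 CPM in GFP day 7. Kcnj14 stood at 0.978, 0.319 and 1.89 CPM in Olig1 day 7, against 94.3, 20.3 and 147 CPM in GFP day 7. Both had groups without overlap, with pooled counts 197-fold lower (interval 104 to 431) and 78.5-fold lower (interval 59.4 to 106) with Olig1. Neither was called: the fitted changes were -7.56 ± 2.64 (edgeR adjusted p = 0.263) and -6.24 ± 2.04 (adjusted p = 0.246).

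At day 14 that order was not seen. Kcnv2 stood at 8.38, 0.407 and 28.2 CPM in Olig1 libraries, against 0, 19.1 and 1.25 CPM in GFP libraries. Kcnj14 stood at 45.9, 0.774 and 46.7 CPM in Olig1 libraries, against 0, 74.7 and 4.05 CPM in GFP libraries. The groups overlapped and the pooled ratios were 1.54 (interval 1.38 to 1.73) and 1.03 (interval 0.966 to 1.10).

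Rod markers had the same order between the groups as these genes at day 7, and went with them in only part of the day 14 libraries. The sum of 12 rod markers, all 12 detected, was 598, 1085 and 1294 CPM in Olig1 day 7, 58385, 12528 and 54289 CPM in GFP day 7, 8136, 1121 and 12701 CPM in Olig1 day 14, and 4515, 53037 and 19215 CPM in GFP day 14. Nr2e3, which helps specify rods, was at 0 in 1 library. GFP day 14 replicate 1 had more rod markers than any Olig1 day 7 library but 0 counts of Kcnj14 and Kcnv2. GFP day 14 replicate 3 had a higher rod sum than Olig1 day 14 replicate 1 but less Kcnj14 (4.05 against 45.9 CPM) and Kcnv2 (1.25 against 8.38 CPM). The 5 libraries with the highest Kcnj14 were the same as the 5 with the highest Kcnv2, and 4 of them were among the 5 with the highest rod sum. For Kcnma1 the top 5 shared 3 with the rod sum. These overlaps were not set against those of other genes, and all of these members were among those with the smallest p at day 7. The sum of 12 bipolar markers was also lower in the Olig1 day 7 libraries, at 240 to 524 CPM, against 1260 to 2584 CPM in GFP day 7. The sum of 10 cone markers was 27 to 109 CPM in Olig1 day 7, against 1414 to 1949 CPM in GFP day 7, but Gnb3, which bipolar cells also express, made up 1768 of 1898 CPM in GFP day 7 replicate 1. In that library Opn1sw, Opn1mw, Arr3, Pde6h, Pde6c and Cnga3 were at 0 to 0.107 CPM, so these cone markers did not separate the groups. Kcne2 did not track the rod sum within the GFP day 7 group: its 0.702 CPM was in replicate 3, with 54289 CPM of rod markers. The part of rod, cone and bipolar RNA in these differences was not tested.

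**Figure D5:**
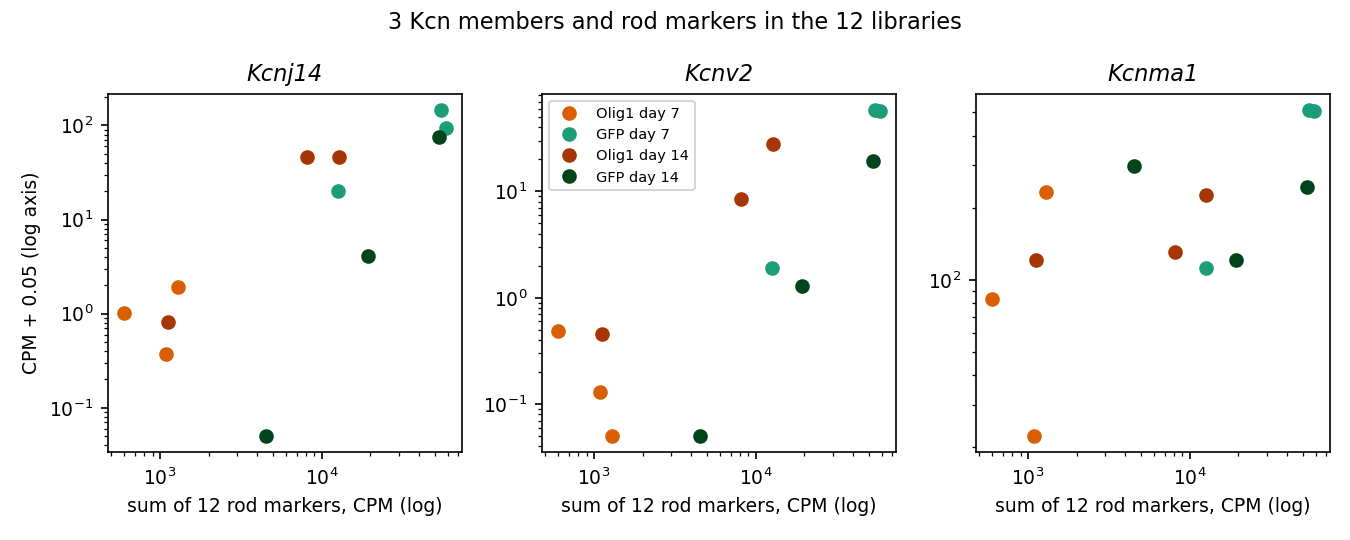
The x axis gives the sum of 12 rod markers in CPM and the y axis the CPM + 0.05 of Kcnj14, Kcnv2 or Kcnma1, both on log axes, with 1 point per library colored by group. The 3 Olig1 day 7 libraries sit at 598 to 1294 CPM of rod markers and at most 1.89 CPM of Kcnj14 and Kcnv2, and the 3 GFP libraries with 53037 CPM or more of rod markers sit at 74.7 CPM or more of Kcnj14.

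At day 7 the ganglion and amacrine marker sums had the opposite order to the rod sum, as Kcnip1, Kcnc2 and Kcna1 had. Beside the ganglion cell sums above, the sum of 12 amacrine markers, all 12 detected, was 3933, 1464 and 1660 CPM in Olig1 day 7, against 695, 763 and 343 CPM in GFP day 7, and 1013, 532 and 1487 CPM in Olig1 day 14, against 752, 297 and 410 CPM in GFP day 14. Gad1 stood at 126 to 1022 CPM in Olig1 day 7, against at most 0.761 CPM in GFP day 7, and was at 0 in 2 libraries, while Chat was at 0 in 11. Olig1 day 14 replicate 2, with 35.7 CPM of Kcnc2, held 3508 CPM of ganglion markers, and replicates 1 and 3 held 175 and 166 CPM. Kcna1 was at 0 and Kcnip1 at 0.163 CPM in that replicate 2, while Kcnip1 stood at 10.0 and 10.1 CPM in replicates 1 and 3, so at day 14 Kcnip1 and Kcna1 did not follow the ganglion sum. The sum of 5 horizontal cell markers overlapped at day 7, at 236 to 512 CPM in Olig1 libraries, against 232 to 3654 CPM in GFP libraries. Their part in the levels of Kcnip1, Kcnc2 and Kcna1 was not tested.

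Kcnma1, the BK pore that couples calcium entry to potassium efflux, was detected in all libraries. It stood at 83.0, 22.3 and 233 CPM in Olig1 day 7, against 504, 112 and 512 CPM in GFP day 7, and at 130, 121 and 227 CPM in Olig1 day 14, against 298, 245 and 121 CPM in GFP day 14. The groups overlapped at both days, and the change at day 7 was -1.69 ± 0.67 (edgeR adjusted p = 0.289). Kcnu1, the related channel known from sperm, was found only in the 3 Olig1 day 14 libraries of the 12, at 3.73, 12.5 and 2.98 CPM, which is at least 177-fold higher than in GFP day 14 in pooled counts (adjusted p = 0.438). Kcnn2, an SK channel, peaked at 73.8 CPM in Olig1 day 14 replicate 2, with at most 12.3 CPM elsewhere. Kcnt1, a sodium-activated channel, was found at 0.244 to 12 CPM in 10 libraries.

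The inward rectifier Kcnj10, the main channel of Müller glia, stood at 0.272, 0.399 and 46.4 CPM in Olig1 day 7, against 45.2, 33.0 and 57.5 CPM in GFP day 7, and at 27.5, 20.2 and 16 CPM in Olig1 day 14, against 2.67, 20.0 and 8.27 CPM in GFP day 14. In the same libraries Glul was at 245, 936 and 543 CPM in Olig1 day 7, against 3770, 5081 and 4666 CPM in GFP day 7. Rlbp1, another Müller gene, was at 168 to 370 CPM, against 765 to 1740 CPM. Of the 13 Müller markers, Apoe, Vim and Lhx2 overlapped between the day 7 groups, and the others were lower with Olig1. Within Olig1 day 7, Glul and Rlbp1 did not follow Kcnj10: both were highest in replicate 2, and Kcnj10 was highest in replicate 3. The part of Müller RNA in Kcnj10 was not tested. Groups overlapped at both days (edgeR adjusted p = 0.701 at day 7). Kcnj12 stood at 17.1 and 3.91 CPM in Olig1 day 7 replicates 1 and 2 and 2.28 CPM in Olig1 day 14 replicate 1, with 0 counts in the other 9 libraries, which is at least 163-fold higher with Olig1 over both days (adjusted p = 0.150). Kcnj2 reached 20.0 CPM in Olig1 day 14 replicate 2 and at most 4.02 CPM elsewhere. Kcnj13, with the strand doubt given above, reached 80.4 CPM in GFP day 7 replicate 2 and 32.8 CPM in GFP day 14 replicate 3, and at most 15.6 CPM in an Olig1 library.

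The two-pore channels carry leak currents, and those of the TREK group (Kcnk2, Kcnk4 and Kcnk10) are gated by stretch and lipids. Kcnk1 was abundant with both vectors, at 0.285 to 79.0 CPM in Olig1 libraries and 21 to 106 CPM in GFP libraries (-0.33 ± 0.81 over both days, edgeR adjusted p = 0.932). Kcnk2 stood at 6.14, 1.36 and 0.676 CPM in Olig1 day 7 and at 0, 5.34 and 0.213 CPM in Olig1 day 14, with 0 counts in all 6 GFP libraries, at least 110-fold higher over both days (adjusted p = 0.113). Kcnk10 stood at 6.93 CPM in Olig1 day 14 replicate 1 and 0.0815 CPM in replicate 2, with 0 counts in GFP day 14. The silent Kv subunit Kcns2 likewise had 0 counts in all GFP libraries and stood at 11, 2.47 and 1.08 CPM in Olig1 day 7 and at 6.15 CPM in Olig1 day 14 replicate 1, at least 150-fold higher over both days (adjusted p = 0.130). In Kcnk2, Kcns2 and Kcnj12, replicate 2 of Olig1 day 7 lay at about the shared ratio to replicate 1. The same held for Kcnip1 (31.8 against 157 CPM), Kcnc1 (28.2 against 139 CPM), Kcnh1 (9.17 against 46.2 CPM) and Atp1b1 (312 against 1572 CPM). Kcnc2, Kcna2, Kcnip3 and Dpp10 also lay near that ratio. Of the 32 members compared above, 27 lay in the band, while Kcna1 and Kcnip4 were higher in replicate 2. Whether replicate 2 counts as a separate library where groups did not overlap at day 7 was not tested.

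Whether the Olig1 difference changed between the days was tested as an interaction. edgeR called 0 members, beside 0% of all genes; 4 had an unadjusted p under 0.05 (9.9% of all genes). DESeq2 called 3 members, beside 3.89% of genes, and voom 0, beside 0%. Among those with the smallest p were Kcna1 (adjusted p = 0.341), higher with Olig1 than with GFP at day 7 and not at day 14, Kcnv2 (0.392), Kcnj14 (0.404) and Kcnk10 (0.538). For Kcnv2 and Kcnj14 the fitted difference between the days was 8.48 ± 3.20 and 6.55 ± 2.51 on the log2 scale.

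Day 14 was also set against day 7 within each vector. In Olig1 libraries edgeR called 0 members, beside 0.0334% of all genes; 6 had an unadjusted p under 0.05 (11.8% of all genes). DESeq2 called 3 members, beside 4.53% of genes, and voom 4, beside 2.09%. Among those with the smallest p were Kcnu1 (at 0 counts on day 7; adjusted p = 0.371), Kcnj14 (5.10 ± 1.94), Kcna1 (-7.91 ± 2.97) and Kcnk4, which had 0 counts in the Olig1 day 14 libraries and 11.1, 0.798 and 2.43 CPM in the Olig1 day 7 libraries. Kcnip1 was 15.0-fold lower at day 14 than at day 7 in pooled counts of Olig1 libraries (interval 13.5 to 16.7), with no overlap; groups without overlap were found for 8 members, 15.4% of those tested, beside 16.1% of all genes. In GFP libraries edgeR called 0 members, beside 0% of all genes; 4 had an unadjusted p under 0.05 (10.3% of all genes), and DESeq2 and voom called 0, beside 4.77% and 0.113% of genes. Groups without overlap were found for 3 members there (5.77%), beside 14.4% of all genes. The smallest p belonged to Kcnip1, Kcna1, Kcnk4, Kcna2 and Kcnj5, with adjusted p values of 0.442 to 0.487. Kcnj5 stood at 0.0784, 3.48 and 5.01 CPM in GFP day 14, against 0, 0.0547 and 0.0585 CPM in GFP day 7. The comparisons of days share libraries with those of the vectors and are not independent of them.

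Genes that work with potassium channels were taken from a list of 32, of which 27 were tested. edgeR called 0 of them at day 7 and 0 at day 14, beside 0.227% and 0.04% of all genes. At an unadjusted p under 0.05 there were 4 at day 7 (14.8%, beside 13.9% of all genes) and 3 at day 14 (11.1%, beside 10.4%), which lies near the background. Over both days 1 was called, beside 0.654% of all genes: Atp1b1, the beta subunit of the sodium-potassium pump, rose. It stood at 1572, 312 and 311 CPM in Olig1 day 7, against 113, 67.1 and 101 CPM in GFP day 7, and at 273, 579 and 474 CPM in Olig1 day 14, against 168, 70.0 and 219 CPM in GFP day 14. The groups did not overlap at either day, and Atp1b1 rose by 2.24 ± 0.46 over both days (adjusted p = 0.0376; 0.0872 without Olig1 day 7 replicate 1, 0.0511 with replicates 1 and 2 added, and up to 0.111 with another library left out). The Atp1b1 call was kept in only 9 of 20 alternative settings. Pooled counts were 4.79-fold higher with Olig1 (interval 4.71 to 4.87).

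The next genes of that list were subunits or relatives of the channels. Dpp10, an auxiliary subunit of Kv4 channels like Kcnip1, stood at 21.2, 5.35 and 1.08 CPM in Olig1 day 7, against 0 counts in GFP day 7 (adjusted p = 0.254). Amigo1, an auxiliary subunit of Kv2 channels, stood at 15.8, 47.2 and 1.12 CPM in Olig1 day 14, against at most 1.01 CPM in GFP day 14 (6.08 ± 2.41, adjusted p = 0.438). The pacemaker channel gene Hcn4 reached at most 4.62 CPM. Atp1b2, the glial beta subunit of the pump, was at -1.22 ± 0.57 at day 7 (adjusted p = 0.358). In the partners, the medians of the fitted changes were 0.32 at day 7 and 0.61 at day 14, beside -0.03 and 0.09 over all genes.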

How the data were processed

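The deposited series table holds whole-number read counts per gene for the 12 libraries, made by the authors; per the submitters' processing notes the tools were FastQC, HISAT2 and HTSeq with mm10, while their versions, the annotation and the strand mode were not given in the sources used here. Per the labels, libraries were SMART-Seq HT from polyadenylated RNA, without molecular identifiers named, so amplified copies count as reads; their protocol speaks of 3 batches without tying libraries to them. The per-sample copies of 4 libraries lack genes and the series table was used; 0 shared genes differed. Kcn genes and exon lengths came from GENCODE M21 (GRCm38), promoters from RefSeq.

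Total counts were 12534515 to 27602459. CPM values are counts scaled to the library total. Tests used edgeR 4.0.16 in R 4.3.3 (quasi-likelihood, robust, TMM, filterByExpr with a minimum count of 10), 1 fit of 4 groups of 3 libraries with 6 contrasts, and Benjamini-Hochberg adjustment over 14985 genes. The common biological coefficient of variation was 1.35, and 3 against 3 libraries allow no exact permutation p below 0.1. On counts simulated for Olig1 at day 7 (14547 genes), edgeR recovered 0, 10, 22 and 31 of 50 genes changed 4-, 16-, 64- and 256-fold. Shares of genes called by DESeq2 are of those given an adjusted p. Alternatives used DESeq2 1.42.0, limma 3.58.1, other filters and left-out libraries; tables used Python 3.11.15, pandas 2.3.3, scipy 1.17.1 and matplotlib 3.10.9.

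Named genes were the called members, the 10 with the smallest p in each Olig1 comparison and 5 in the other 3, the 10 highest per length, a panel of 33 members, and partner genes called or among the 4 smallest p; Kcnn2, outside this rule, was chosen after its values were seen. Some genes that the rule names are not reported here, though counts over all members include them. Members and lists were chosen with earlier results of these data known.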

Additional observations from a re-analysis of the deposited data

How the results depend on the processing

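Of 1134 alternative values for 57 single-gene results, 1055 kept their direction and side of the threshold, 47 passed it newly, 32 lost it and 0 reversed. Only Kcnip1, Kcne2 and Atp1b1 over both days were called at the start, so all 32 losses fell on them. Their calls were kept in 13, 6 and 9 of 20 alternatives each. For the other results, keeping the side of the threshold meant staying uncalled. Counts of calls moved too. In the order day 7, day 14 and both days, DESeq2's Wald test called 6, 6 and 8 Kcn members and 954, 743 and 1153 genes in all, and limma voom 3, 2 and 5 members and 430, 55 and 460 genes. For the interaction DESeq2 called 3 members and 527 genes. For day 14 against day 7, DESeq2 called 646 genes in GFP libraries and 3 members and 626 genes in Olig1 libraries, and voom 17 genes in GFP libraries and 4 members and 313 genes in Olig1 libraries. Without a filter on low counts 2 members were called at day 7 and 1 at day 14, with 218, 23 and 401 genes at day 7, day 14 and both days, 40 for the interaction, 13 for the days in GFP libraries and 59 in Olig1 libraries. With 10 counts in 6 libraries as the filter there were 2 genes at day 14 and 2 for the days in Olig1 libraries. With only the compared groups in the fit both counts were 0. DESeq2 size factors gave 1 member over both days and 0 genes for the days in Olig1 libraries. Without the 4 libraries with high microglia markers there was 1 member at day 14, 5 over both days and 1 for the days in GFP libraries, with 176, 349 and 145 genes, 15 for the days in Olig1 libraries and 127 for the interaction. With Olig1 day 7 replicates 1 and 2 added into 1 library, an alternative chosen after seeing the data, 0 members were called over both days, with 10 genes at day 7, 36 over both days and 1 for the days in GFP libraries. The cause was not tested in any of these.

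Leaving out each library in turn gave 0 to 2 members over both days and 0 in every other comparison. For all genes it gave 1 to 81 at day 7, 0 to 6 at day 14, 26 to 133 over both days, 0 to 1 for the interaction, 0 to 2 for the days in GFP libraries and 0 to 10 in Olig1 libraries. Same-numbered libraries had correlations of -0.0702 to 0.0477 between their deviations, and differently numbered libraries -0.062 to 0.0789. Between the vectors, the same-numbered values lay above the others at day 7 (0.0222 to 0.0477, against at most 0.00312). At day 14 they lay below the others (-0.0617 to -0.0249, against at least -0.0045). Values this small do not settle whether the replicate numbers pair the libraries. With a replicate block 1 member was called over both days (Kcnip1, edgeR adjusted p = 0.0266; Kcne2, 0.110), with 1 gene at day 14, 64 over both days and 1 for the interaction. Depth limits the members at 0: up to 0.109 to 0.239 CPM cannot be seen.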

Other observations

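Kcnq1ot1, the noncoding RNA that runs antisense to the imprinted channel gene Kcnq1, was found in all 12 libraries at 40.3 to 202 CPM (mean 105 CPM). Kcnq1 itself had 0 counts in all of them. Of the other 4 noncoding Kcn symbols, Kcnd3os stood at 0.203 CPM in Olig1 day 7 replicate 3 and 0.852 CPM in GFP day 7 replicate 1, and Kcnab3os, Kcnmb4os1 and Kcnmb4os2 had 0 counts. The strand setting of the counting is not given, so reads of an antisense gene and its partner cannot be told apart where they overlap.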
